A study of Mus musculus with 16 samples.

Results

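The 8 genes described here carry the bile acid cycle of the ileum: the uptake transporter Slc10a2, the binding protein Fabp6, the export subunits Slc51a and Slc51b, the nuclear receptor Nr1h4 with its targets Nr0b2 and Fgf15, and the conjugating enzyme Baat. They were chosen by name from the 21965 Ensembl genes of the count table, and all 8 had counts enough to be tested. Poly(A) RNA was sequenced from the terminal ileum of 16 male C57BL/6 mice, with 1 library per mouse. The fat-1 mice, labelled Fat1+/-, were heterozygous for a C. elegans n3 fatty acid desaturase that is expressed in all tissues and converts n6 to n3 polyunsaturated fatty acids, and the wild-type (WT) mice were their littermates. From an age of 8 to 10 weeks, the ethanol (EtOH) groups drank a liquid diet in which EtOH rose stepwise to 6%, the level of the last 3 weeks, and the pair-fed (PF) groups drank a liquid diet with maltose dextrin in place of EtOH. The daily ration of PF mice matched the calories that EtOH mice had taken the day before. The labels do not say which mice were matched, and the groups were fitted as unpaired. The 4 groups were WT PF (n = 4), fat-1 PF (n = 4), WT EtOH (n = 3) and fat-1 EtOH (n = 5). The transgene's own transcript was not analysed here, and in whole tissue fewer cells of a type and less RNA per cell cannot be told apart.

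Bile acids are made from cholesterol in the liver, conjugated with taurine or glycine, and recovered almost whole at the end of the small intestine. There SLC10A2 (ASBT) carries them through the brush border of the enterocyte, FABP6 (IBABP) binds them in the cytosol, and the heterodimer of SLC51A and SLC51B (OSTα and OSTβ) passes them to the portal blood. Inside the enterocyte they activate FXR, the product of Nr1h4, which with RXR binds an inverted repeat of the motif AGGTCA with 1 base between the copies (IR-1). FXR turns on Fabp6, Slc51a, Slc51b, Nr0b2 (SHP) and Fgf15, and the hormone FGF15 travels to the liver and restrains bile acid synthesis. The comparisons ask how the genotype, the EtOH diet and their combination relate to the transcripts of this cycle.

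The promoters of 6 of the 8 genes were found in RefSeq, from 250 bases before to 50 after the start of the gene. They are given because FXR is known to act through such sequences, and 4 of them are shown, those of the uptake transporter, of the receptor and of a pair of FXR targets. Capitals mark an IR-1 with at most 2 mismatches to AGGTCANTGACCT, or an exact match to AGGTCA, to the GATA motif AGATAA or to the HNF1 motif GTTAAT on either strand. All are on GRCm38.p6, and each is written 5′ to 3′ on the minus strand, the strand of its gene. They are Fabp6 at chr11:43601513-43601812, Slc51b at chr9:65422724-65423023, Slc10a2 at chr8:5105238-5105537 and Nr1h4 at chr10:89506609-89506908.
Fabp6: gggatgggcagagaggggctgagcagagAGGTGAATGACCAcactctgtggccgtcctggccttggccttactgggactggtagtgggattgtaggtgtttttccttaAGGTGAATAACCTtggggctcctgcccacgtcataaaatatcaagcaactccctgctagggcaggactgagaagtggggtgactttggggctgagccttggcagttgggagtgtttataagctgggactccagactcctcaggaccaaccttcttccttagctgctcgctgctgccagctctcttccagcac
Slc51b: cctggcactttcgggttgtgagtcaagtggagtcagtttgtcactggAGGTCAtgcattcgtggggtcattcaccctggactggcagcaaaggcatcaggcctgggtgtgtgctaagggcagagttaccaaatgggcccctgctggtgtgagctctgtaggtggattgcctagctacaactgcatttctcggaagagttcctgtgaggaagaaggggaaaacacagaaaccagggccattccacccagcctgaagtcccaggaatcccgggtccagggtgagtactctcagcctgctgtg
Slc10a2: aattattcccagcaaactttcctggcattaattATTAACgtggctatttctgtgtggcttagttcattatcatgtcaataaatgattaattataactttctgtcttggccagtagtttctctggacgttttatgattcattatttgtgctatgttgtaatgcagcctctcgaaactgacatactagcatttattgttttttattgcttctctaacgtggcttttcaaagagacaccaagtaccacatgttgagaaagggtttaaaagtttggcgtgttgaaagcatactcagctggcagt
Nr1h4: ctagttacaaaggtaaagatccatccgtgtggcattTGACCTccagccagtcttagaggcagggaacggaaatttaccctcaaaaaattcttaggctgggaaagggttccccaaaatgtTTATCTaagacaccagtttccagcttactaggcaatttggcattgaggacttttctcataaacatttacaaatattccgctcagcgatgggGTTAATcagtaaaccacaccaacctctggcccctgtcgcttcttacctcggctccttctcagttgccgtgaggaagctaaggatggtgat

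Of these, the Fabp6 window came closest to an IR-1. It holds AGGTGAATGACCA from base -222 and AGGTGAATAACCT from base -142 before the start, each with 2 mismatches, and 1.14% of 32851 promoters hold a match as close. The windows of Slc51a and Slc51b held none closer than 3 mismatches, which 11.4% of promoters reach. Each of these holds 1 AGGTCA, as does that of Nr1h4, and 16.3% of promoters have this motif. The Nr1h4 window also holds AGATAA, found in 11.2% of promoters, and GTTAAT, found in 7.1%, and the Slc10a2 window holds GTTAAT. No capital falls in the Nr0b2 window. The RefSeq starts of Nr1h4, Slc51b and Slc10a2 used here lie inside the genes as GENCODE M21 draws them. That of Nr1h4 lies farthest inside, so that it is 1 of the start sites of this gene. These 3 windows are thus not placed at the outermost start that GENCODE draws. These matches describe letters and are not evidence of binding.

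The libraries held 8422645 to 11438539 counted reads, and levels are given in CPM, counts scaled to the library size after TMM normalization. PF mice carry the library numbers 1 to 8 and EtOH mice 9 to 16, and library order and diet cannot be told apart. In genes that mark other regions of the gut, 5 mice stood apart, which was seen after the data were examined. The first 2 were fat-1 PF mice 2 and 4, in which the summed level of 11 markers of the proximal small intestine was 53197.7 and 52161.5 CPM, against 27.4 to 15446 CPM in the other 14 mice. The other 3 were WT EtOH mouse 2 and fat-1 EtOH mice 3 and 4, in which 11 markers of the large intestine summed to 4422, 11518 and 12471 CPM, against 12.8 to 122.7 CPM elsewhere. Car1, a carbonic anhydrase, made up 91.4%, 96.9% and 97.9% of these sums, and without it the other 10 markers summed to 381.5, 361.4 and 263.1 CPM, against 9.20 to 47.7 CPM elsewhere. Of the 11, 6, 8 and 8 had more than 3 counts in these mice. Results are therefore given with and without these 5. Markers also differed between the diets outside these 5 mice. Gata4, a transcription factor of the proximal small intestine, was at 25.6 to 87.8 CPM in the 6 PF mice and at 0.168 to 1.11 CPM in the 5 EtOH mice that remain, and at 25.6 to 156.4 and 0 to 1.11 CPM in all 8 PF and 8 EtOH mice. Summed proximal markers were at 1984 to 15446 CPM in the 6 PF mice and at 337.2 to 465.8 CPM in the 5 EtOH mice, and 6 smooth muscle markers at 1031 to 1434 CPM and 1859 to 2606 CPM. In all 16 mice, smooth muscle markers were at 905.6 to 1434 CPM with PF and 1859 to 4042 CPM with EtOH. Other markers of the distal small intestine (Cubn, Amn, Nts, Gcg and Pyy) were found in every mouse, summing to 202.9 to 1719 CPM. Of these, Cubn had the highest mean in every group (444.3 to 1073 CPM). The sums were lowest in fat-1 EtOH mice 3 and 4 (213.9 and 202.9 CPM), and next in fat-1 PF mouse 4 (466.8 CPM). In the 11 mice that do not stand apart they were 752.0 to 1225 CPM with PF and 977.8 to 1719 CPM with EtOH. Summed over 8 genes, epithelial markers were at 10098 and 10046 CPM in fat-1 EtOH mice 3 and 4 and at 12353 to 18972 CPM in the other 14. The same 2 mice had the highest sums of smooth muscle markers (3897 and 4042 CPM) and of acinar markers (49.8 and 43.3 CPM, against 5.04 to 17.1 CPM). Hepatocyte markers were at 7.87 to 53.3 CPM. B cell markers were at 485.7 CPM in fat-1 EtOH mouse 5, which is not among the 5, and at 1.96 to 97.9 CPM in the others. The part of these markers in the results was not tested.

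Of the 8 genes, only Nr1h4 differed between groups at an adjusted p of 0.05 or less in the edgeR test. It was 2.24-fold higher in fat-1 EtOH than in fat-1 PF mice, in a comparison in which 37.4% of 13811 genes were called (18.7% higher and 18.8% lower). Averaged over both genotypes it was 1.90-fold higher with EtOH, where 35.9% of genes were called (18.3% higher and 17.6% lower). A count of 1 in 8 is below the share of all genes called, in either comparison. In WT EtOH against WT PF mice, where 0.0796% of genes were called, none of the 8 was called, nor at an unadjusted p under 0.05, as 14.1% of all genes were. The share called in WT mice depended on the fit: it was 3.41% without the 5 mice, 8.32% in a fit of these 2 groups alone and 20.3% with limma voom, and none of these called any of the 8 that it tested (Nr0b2 was not tested without the 5 mice). None was called between the genotypes: in fat-1 PF against WT PF mice 0% of genes were called, and in fat-1 EtOH against WT EtOH mice 0.00724%. In these, 1 of the 8 (Nr0b2, fat-1 PF against WT PF) and 0 of the 8 were at an unadjusted p under 0.05. For the interaction of genotype and diet, the test of whether the EtOH difference itself differed between genotypes, 0% of all genes and 0 of the 8 were called, also at an unadjusted p under 0.05 for the 8. The lowest adjusted p of the 8 for it was 0.597. DESeq2 called 0 of the 8 between the genotypes, in WT mice and for the interaction, though it gave no adjusted p to Nr0b2 between the PF groups and in WT mice, nor to Baat between the PF groups. It called 2.56% of the genes to which it gave an adjusted p between the PF groups, 2.11% in WT mice and 0.0363% between the EtOH groups. Of all genes, 12.7% had an unadjusted p under 0.05 in fat-1 PF against WT PF mice, where DESeq2 called 172 higher and 17 lower, and 8.26% had one for the interaction, where DESeq2 called 0. These comparisons share mice and are not independent of each other.

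The median log2 fold change of the 8 genes was -0.62 in fat-1 PF against WT PF, 0.66 in WT EtOH against WT PF, 0.42 in fat-1 EtOH against fat-1 PF and -0.41 in fat-1 EtOH against WT EtOH mice, beside medians of all genes of 0.02, 0.01, 0.05 and 0.04. These medians are of all 16 mice. Without the 5 mice, Fabp6 (0.37), Slc51a (0.02), Slc51b (0.09), Fgf15 (0.70) and Nr1h4 (0.02) were positive in fat-1 PF against WT PF. Slc10a2 and Baat stayed negative there. Between the EtOH groups Fabp6 (0.09), Slc51a (0.06), Slc51b (0.04) and Baat (0.24) were positive, and Slc10a2, Fgf15 and Nr1h4 negative. Nr0b2 was not tested without these mice. Upper-quartile scaling moved the median of all genes in fat-1 EtOH against fat-1 PF mice by 0.15 and the calls from 2578 higher and 2592 lower to 3906 and 1753.

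**Figure D1:**
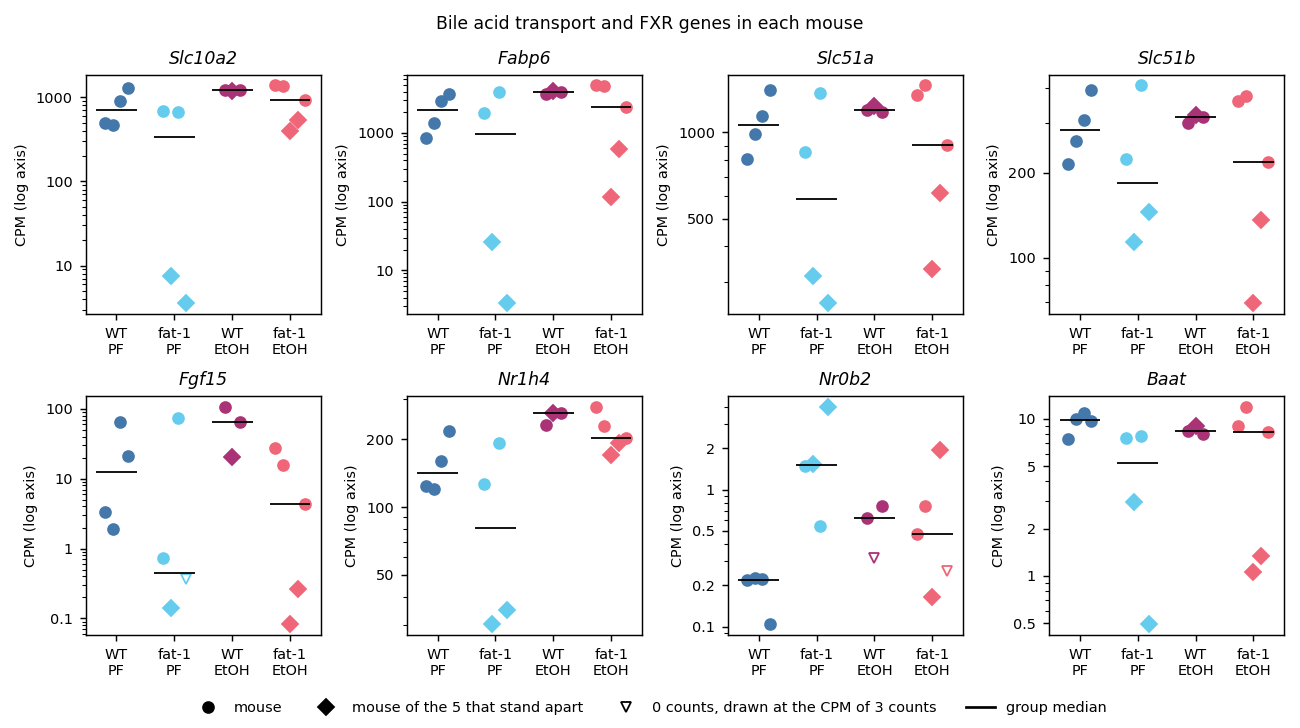
CPM of the 8 genes (log axis) in each of the 16 mice by group, with the group median as a line, diamonds for the 5 mice that stand apart and open triangles for mice with 0 counts. Slc10a2, Fabp6 and Nr1h4 are lowest in fat-1 PF mice 2 and 4, and the 3 WT EtOH mice lie close together for every gene except Fgf15 and Nr0b2.

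Slc10a2 (ENSMUSG00000023073, chromosome 8, 5083219 to 5105351, minus strand) takes up bile acids from the lumen. In WT PF mice 1 to 4 it was at 500.9, 473.1, 894.6 and 1272 CPM, and in fat-1 PF mice 1 to 4 at 689.3, 7.58, 674.9 and 3.56 CPM. WT EtOH mice 1 to 3 had 1216, 1174 and 1235 CPM, and fat-1 EtOH mice 1 to 5 had 1382, 1362, 394.2, 531.3 and 936.0 CPM. Fat-1 PF mice 2 and 4 thus had 54 and 29 reads of this transporter where every other mouse had 4180 or more, and the 3 WT EtOH mice averaged 1208 ± 30.9 CPM (SD). The groups overlapped in every comparison. Slc10a2 had a log2 fold change of -1.19 ± 1.08 (SE) in fat-1 PF against WT PF (adjusted p = 0.707), 0.62 ± 1.14 in WT EtOH against WT PF (adjusted p = 0.842), 1.42 ± 1.04 in fat-1 EtOH against fat-1 PF (adjusted p = 0.294) and -0.39 ± 1.08 in fat-1 EtOH against WT EtOH mice (adjusted p = 0.912), none past the test. limma voom, which weights libraries by their quality, called the difference in fat-1 EtOH against fat-1 PF mice (log2 fold change 4.96 ± 1.47, adjusted p = 0.0244), where it called 26.4% of all genes, and that over both genotypes (2.91 ± 0.93, adjusted p = 0.0225), where it called 42.2%. The same values without the 5 mice were -0.22 ± 0.37, 0.65 ± 0.36, 0.86 ± 0.40 and -0.00483 ± 0.38, with adjusted p-values of 0.945, 0.300, 0.160 and 0.999. In those 11 mice Slc10a2 averaged 682.1 ± 10.2 (SD, n = 2) CPM in fat-1 PF and 1227 ± 252 (n = 3) in fat-1 EtOH mice.

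Fabp6 (ENSMUSG00000020405, chromosome 11, 43596049 to 43601540, minus strand), whose promoter holds both IR-1-like stretches, carries bile acids through the cell. WT PF mice 1 to 4 had 845.0, 1374, 2950 and 3713 CPM, and fat-1 PF mice 1 to 4 had 1920, 26.1, 3890 and 3.31 CPM. In WT EtOH mice 1 to 3 it was at 3645, 4079 and 3922 CPM, and in fat-1 EtOH mice 1 to 5 at 4906, 4837, 117.5, 586.4 and 2344 CPM. It was therefore low in all 4 fat-1 mice that stand apart, but not in WT EtOH mouse 2, and groups overlapped in every comparison. The log2 fold change of Fabp6 was -0.60 ± 1.37 (SE) in fat-1 PF against WT PF (adjusted p = 0.903), 0.81 ± 1.46 in WT EtOH against WT PF (0.841), 0.81 ± 1.31 in fat-1 EtOH against fat-1 PF (0.646) and -0.60 ± 1.39 in fat-1 EtOH against WT EtOH mice (0.895). The size depended on the fit: limma voom gave -4.40 ± 1.63 between the PF groups (adjusted p = 0.156) and 5.19 ± 2.08 in fat-1 EtOH against fat-1 PF mice (0.0815), and leaving out 1 mouse gave -1.79 to -0.20 and 0.41 to 1.99. In the 11 other mice, the difference between the PF groups had the other sign (0.37 ± 0.57, adjusted p = 0.939), as had that between the EtOH groups (0.09 ± 0.61, adjusted p = 0.999).

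The ratio of Fabp6 to Slc10a2 within a mouse, in counts per kb of exon, showed how the intake genes moved against each other. It was 14.6 to 28.6 in WT PF mice and 26.0 to 30.1 in WT EtOH mice. Among fat-1 PF mice it was 24.2, 29.9, 49.96 and 8.07 in mice 1 to 4, and among fat-1 EtOH mice 30.8, 30.8, 2.58, 9.57 and 21.7 in mice 1 to 5. Of the 4 fat-1 mice that stand apart, only fat-1 PF mouse 2 thus had a ratio within the range of the 11 mice that do not (14.6 to 49.96). In fat-1 PF mouse 4 and fat-1 EtOH mice 3 and 4 it lay below that range, with 27 reads of Fabp6 and 29 of Slc10a2 behind the value of fat-1 PF mouse 4 (exact 95% interval 4.6 to 14.1, counting error only).

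Slc51a (ENSMUSG00000035699, chromosome 16, 32474504 to 32487879, minus strand) and Slc51b (ENSMUSG00000053862, chromosome 9, 65412714 to 65422955, minus strand) encode the subunits of the exporter. Slc51a was at 808.2, 985.7, 1143 and 1409 CPM in WT PF mice 1 to 4 and at 854.4, 314.0, 1371 and 252.6 CPM in fat-1 PF mice 1 to 4. It was at 1196, 1236 and 1175 CPM in WT EtOH mice 1 to 3 and at 1352, 1461, 332.3, 612.6 and 901.4 CPM in fat-1 EtOH mice 1 to 5. The mice low in Fabp6 were low here too, though by less, and no pair of groups was free of overlap. For Slc51b the PF values were 215.5, 258.5, 307.6 and 391.9 CPM in WT mice 1 to 4 and 223.4, 113.4, 406.9 and 144.8 CPM in fat-1 mice 1 to 4. With EtOH, Slc51b was at 300.6, 319.8 and 314.7 CPM in WT mice 1 to 3 and at 358.0, 374.2, 69.1, 136.0 and 218.5 CPM in fat-1 mice 1 to 5. The subunits ran in parallel: Slc51b to Slc51a, in counts per kb, was 1.21 ± 0.03 (SD, n = 4) in WT PF and 1.17 ± 0.04 (n = 3) in WT EtOH mice.

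In fat-1 PF mice 2 and 4 this ratio was 1.63 and 2.59, with exact 95% intervals (counting error only) of 1.5 to 1.77 and 2.41 to 2.78. In fat-1 EtOH mice 3 and 4 it was 0.938 and 1.00, the lowest of the 16 mice. The log2 fold change of Slc51a was -0.64 ± 0.50 (SE), 0.15 ± 0.54, 0.42 ± 0.48 and -0.37 ± 0.51 in fat-1 PF against WT PF, WT EtOH against WT PF, fat-1 EtOH against fat-1 PF and fat-1 EtOH against WT EtOH mice, with adjusted p-values of 0.647, 0.927, 0.507 and 0.817. That of Slc51b was -0.40 ± 0.46, 0.09 ± 0.50, 0.06 ± 0.44 and -0.43 ± 0.47 in the same order, with adjusted p-values of 0.783, 0.954, 0.929 and 0.781. Both differences between genotypes turned positive and small without the 5 mice, at 0.02 ± 0.26 and 0.06 ± 0.28 for Slc51a and 0.09 ± 0.30 and 0.04 ± 0.32 for Slc51b in PF and EtOH mice. Slc51b in fat-1 EtOH against fat-1 PF mice also changed sign without fat-1 PF mouse 2 or 4 or fat-1 EtOH mouse 1 or 2 (-0.18 to -0.09), and in WT mice without WT PF mouse 1 (-0.03). Slc51a overlaps Pcyt1a on the other strand, with which it shares 15.4% of its 75-base windows, and the use of strand in the counting is not given in the sources used here. Pcyt1a itself was at 181.8 to 311.9 CPM in PF and 69.1 to 140.3 CPM in EtOH mice.

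**Figure D2:**
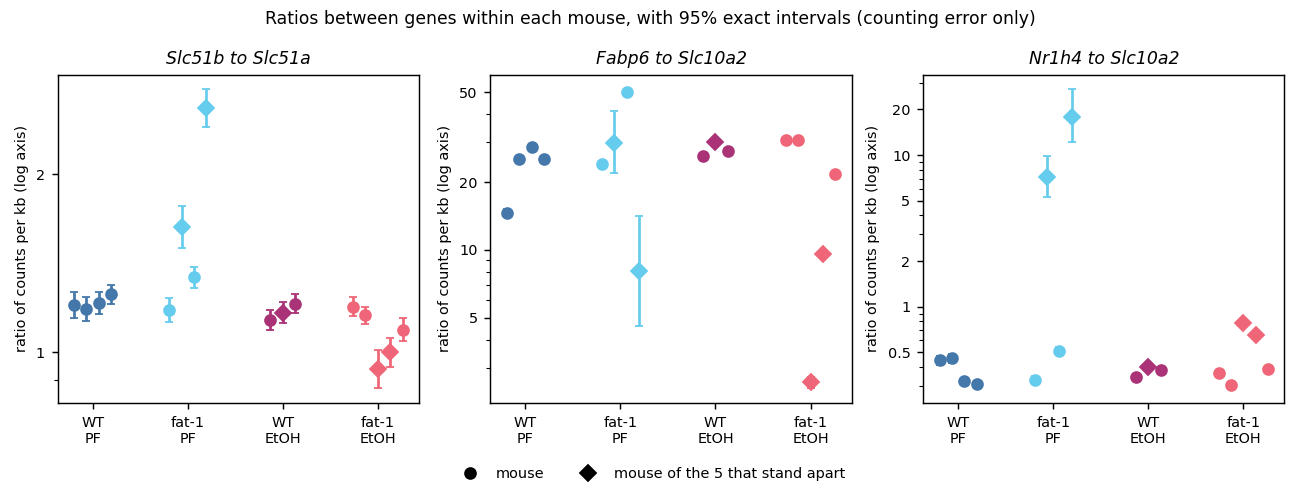
Ratios of counts per kb of exon (log axes) of Slc51b to Slc51a, Fabp6 to Slc10a2 and Nr1h4 to Slc10a2 in each mouse by group, with exact 95% intervals for counting error. Fat-1 PF mice 2 and 4 have the 2 highest ratios of Slc51b to Slc51a (1.63 and 2.59) and of Nr1h4 to Slc10a2 (7.18 and 17.8).

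Nr1h4 (ENSMUSG00000047638, chromosome 10, 89454234 to 89533585, minus strand) encodes FXR, the receptor itself. It was at 123.4, 120.1, 160.1 and 217.9 CPM in WT PF mice 1 to 4 and at 126.3, 30.2, 191.6 and 35.1 CPM in fat-1 PF mice 1 to 4. In the EtOH groups it was at 231.4, 260.5 and 261.4 CPM in WT mice 1 to 3 and at 279.1, 228.9, 170.0, 191.8 and 202.4 CPM in fat-1 mice 1 to 5. Every WT EtOH mouse lay above every WT PF mouse, while the fat-1 groups overlapped, fat-1 PF mouse 3 (191.6 CPM) lying above fat-1 EtOH mouse 3. Nr1h4 rose from 95.8 ± 77.7 (SD, n = 4) to 214.4 ± 41.9 CPM (n = 5) in fat-1 mice, a log2 fold change of 1.16 ± 0.44 (SE) with an adjusted p of 0.0496. The rise over both genotypes was 0.93 ± 0.32 (adjusted p = 0.0378). In WT mice the difference was 0.69 ± 0.48 (adjusted p = 0.529), and the interaction was not called. Differences between genotypes were -0.70 ± 0.45 in PF mice (adjusted p = 0.562), which became 0.02 ± 0.26 without the 5 mice, and -0.23 ± 0.46 in EtOH mice (adjusted p = 0.879).

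The call in fat-1 mice lay at the threshold. Without the 5 mice, the difference was 0.59 ± 0.27 (adjusted p = 0.161) in fat-1 mice and 0.67 ± 0.25 (adjusted p = 0.137) in WT mice, and over both genotypes it was 0.63 ± 0.19 (adjusted p = 0.0294), still called, with 11.9%, 3.41% and 27.6% of all genes called in these 3 comparisons. The call in fat-1 mice held in 2 of the 16 fits that each left out 1 mouse (adjusted p of 0.00676 to 0.116), those without fat-1 PF mouse 1 or 3, and the call over both genotypes in 8 of 16 (0.00577 to 0.0719). With all 16 mice, the call in fat-1 mice was also lost with DESeq2 size factors (adjusted p = 0.0502), with a looser count filter (0.0646) and with the replicate number as a block (0.0649), and in a fit of the fat-1 groups alone (0.127). It was kept by DESeq2 (0.0179), limma voom (0.00867), upper-quartile scaling (0.031) and a stricter filter (0.0399). Over both genotypes the block ended the call (0.0606), and the other alternatives that used all 16 mice kept it (0.00227 to 0.0498). The overall call was also lost without WT PF mouse 1, 2 or 3, fat-1 PF mouse 4, any 1 WT EtOH mouse or fat-1 EtOH mouse 1. Smooth muscle and proximal small intestine markers, given above, also differed between the diets in all mice, and their part in the Nr1h4 difference was not tested.

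Set against uptake, the receptor was lower by less than the transporter in the fat-1 mice that stand apart. Nr1h4 to Slc10a2, in counts per kb, was 0.303 to 0.512 in the 11 mice that do not stand apart and 0.400 in WT EtOH mouse 2. In fat-1 PF mice 2 and 4 it was 7.18 and 17.8, and in fat-1 EtOH mice 3 and 4 it was 0.777 and 0.651. In the latter pair, Nr1h4 was at 170.0 and 191.8 CPM, the lowest of the 8 EtOH mice, while Fabp6 was at 117.5 and 586.4 CPM.

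**Figure D3:**
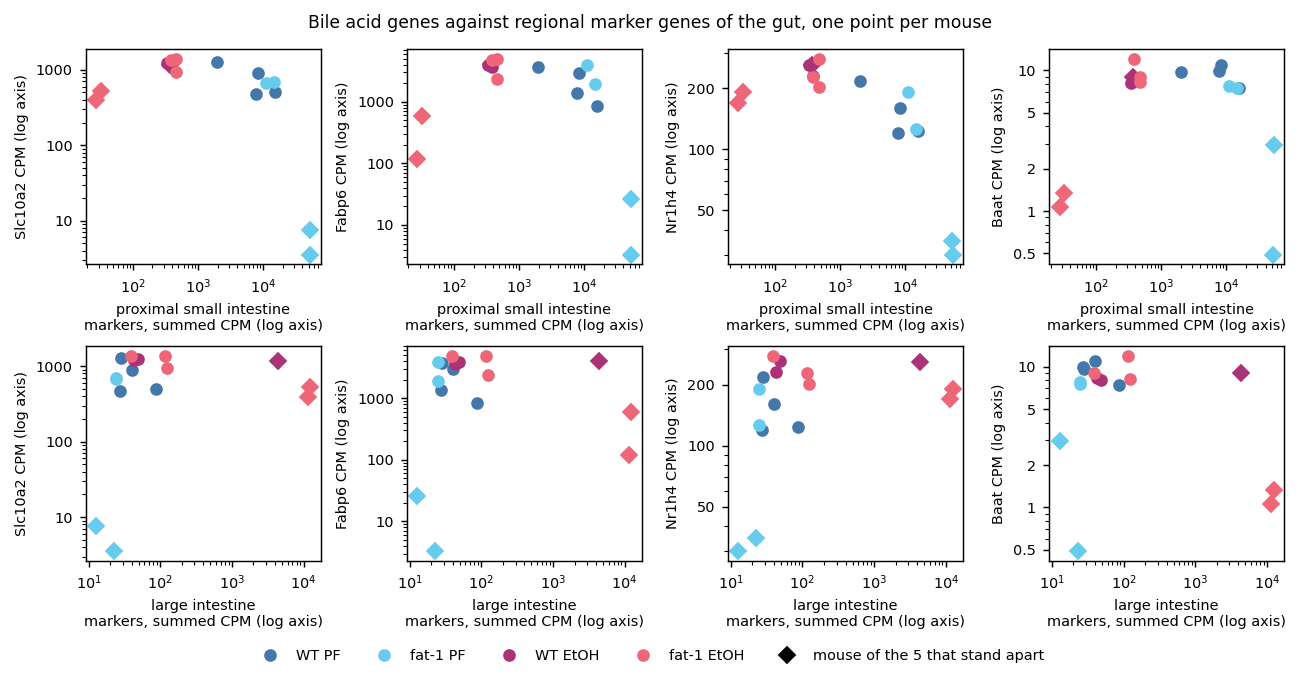
CPM of Slc10a2, Fabp6, Nr1h4 and Baat (log axes) against the summed CPM of 11 proximal small intestine markers (upper row) and 11 large intestine markers (lower row, log axes), 1 point per mouse, coloured by group, with diamonds for the mice that stand apart. The 2 fat-1 PF mice with proximal markers at 52162 and 53198 CPM are lowest in Slc10a2, Fabp6 and Nr1h4, and the 2 fat-1 EtOH mice with large intestine markers at 11518 and 12471 CPM are low in Fabp6 and Baat (117.5 and 586.4, and 1.07 and 1.34 CPM), with Nr1h4 at 170.0 and 191.8 CPM, the lowest of the 8 EtOH mice.

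Fgf15 (ENSMUSG00000031073, chromosome 7, 144896531 to 144900953, plus strand), the hormone that reports ileal bile acids to the liver, varied widely between mice of 1 group. In WT PF mice 1 to 4 it was at 3.39, 1.92, 64.1 and 21.2 CPM, and in fat-1 PF mice 1 to 4 at 0.742, 0.140, 74.9 and 0 CPM. In WT EtOH mice 1 to 3 it was at 108.0, 20.4 and 65.1 CPM, and in fat-1 EtOH mice 1 to 5 at 27.3, 15.6, 0.0820, 0.268 and 4.36 CPM. The 0 of fat-1 PF mouse 4 allows up to 0.368 CPM, the level of 3 counts in that library. As a group WT EtOH mice had the highest mean, but fat-1 EtOH mouse 1 lay above WT EtOH mouse 2, so that the EtOH groups overlapped by 1 mouse. Fgf15 was 64.5 ± 43.8 CPM (SD) in the 3 WT EtOH mice and 9.51 ± 11.8 CPM in the 5 fat-1 EtOH mice, a log2 fold change of -2.77 ± 1.57 (SE) that did not pass the test (adjusted p = 0.757). In the 11 other mice it was -2.47 ± 1.48 (adjusted p = 0.999). The other differences were -0.27 ± 1.56 in fat-1 PF against WT PF (adjusted p = 0.972), 1.51 ± 1.64 in WT EtOH against WT PF (0.715) and -0.99 ± 1.499 in fat-1 EtOH against fat-1 PF mice (0.621). Leaving out 1 mouse gave 0.92 to 2.86 in WT EtOH against WT PF and -3.67 to -2.18 in fat-1 EtOH against WT EtOH mice. The sign of both differences that involve fat-1 PF mice turned when single mice were left out: without fat-1 PF mouse 3 the difference in fat-1 mice was 4.85 ± 2.06 (adjusted p = 0.0846), and without WT PF mouse 3 that between the PF groups was 1.07 ± 1.75, and it was 0.13 to 0.14 without fat-1 PF mouse 1, 2 or 4. The move was larger the other way without fat-1 PF mouse 3, where the difference between the PF groups was -6.10 ± 2.06 (adjusted p = 0.166). Of its 75-base windows, 19.1% match a transcript on the other strand that was not analysed here.

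Nr0b2 (ENSMUSG00000037583, chromosome 4, 133553376 to 133556536, plus strand) encodes SHP, a repressor that is an FXR target in liver and gut. It was low throughout, at 2, 2, 2 and 1 reads in WT PF mice 1 to 4 and 14, 11, 4 and 33 reads in fat-1 PF mice 1 to 4. WT EtOH mice 1 to 3 had 7, 0 and 9 reads, and fat-1 EtOH mice 1 to 5 had 5, 9, 2, 22 and 0. Every fat-1 PF mouse lay above every WT PF mouse, and the highest, mouse 4, was one low in Slc10a2 and Fabp6. Summed over mice, 62 reads in fat-1 PF against 7 in WT PF mice gave a ratio of 10.1 after correction for library size, with an exact 95% interval of 4.63 to 26.2 that covers counting error only. Of the 62 reads, 11 and 33 came from fat-1 PF mice 2 and 4, which stand apart, and without them 18 reads against 7 gave a ratio of 5.62 (2.24 to 15.9). All 4 WT PF mice were at 3 reads or fewer. The fitted log2 fold change of 3.24 ± 1.02 (SE) had an unadjusted p of 0.00651 and an adjusted p of 0.202, so that it was not called, and it was 2.56 ± 1.07 (adjusted p = 0.607) without fat-1 PF mouse 4. It was 1.26 ± 1.20 in WT EtOH against WT PF (adjusted p = 0.664), -1.501 ± 0.79 in fat-1 EtOH against fat-1 PF (0.144) and 0.48 ± 0.96 in fat-1 EtOH against WT EtOH mice (0.879). Without fat-1 EtOH mouse 4 the difference in fat-1 mice was called (-2.40 ± 0.78, adjusted p = 0.0306). That between the EtOH groups changed sign without this mouse (-0.45) and without WT EtOH mouse 2 (-0.05). The gene fell under the count filter once the 5 mice were left out and was not tested there. In those 11 mice it averaged 0.193 ± 0.06 CPM (SD, n = 4) in WT PF, 1.02 ± 0.66 (n = 2) in fat-1 PF, 0.691 ± 0.09 (n = 2) in WT EtOH and 0.414 ± 0.39 (n = 3) in fat-1 EtOH mice.

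Baat (ENSMUSG00000039653, chromosome 4, 49489422 to 49506557, minus strand) joins bile acids to taurine or glycine, chiefly in the liver. It was at 7.43, 9.96, 10.9 and 9.66 CPM in WT PF mice 1 to 4 and at 7.53, 2.95, 7.79 and 0.491 CPM in fat-1 PF mice 1 to 4. In WT EtOH mice 1 to 3 it was at 8.33, 9.03 and 8.07 CPM, and in fat-1 EtOH mice 1 to 5 at 9.03, 11.99, 1.07, 1.34 and 8.21 CPM. It was low in the same 4 fat-1 mice as Fabp6 and within 7.43 to 11.99 CPM in the other 12. The log2 fold changes of -1.01 ± 0.71 (SE) in fat-1 PF against WT PF (adjusted p = 0.599), -0.16 ± 0.74 in WT EtOH against WT PF (0.942), 0.43 ± 0.68 in fat-1 EtOH against fat-1 PF (0.640) and -0.42 ± 0.71 in fat-1 EtOH against WT EtOH mice (0.848) did not pass the test. Without the 5 mice, the difference between the EtOH groups had the other sign (0.24 ± 0.21, adjusted p = 0.999) and that between the PF groups was -0.32 ± 0.21 (adjusted p = 0.908). Hepatocyte markers, summed over 6 genes, were at 53.3 CPM or less in every mouse.

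**Figure D4:**
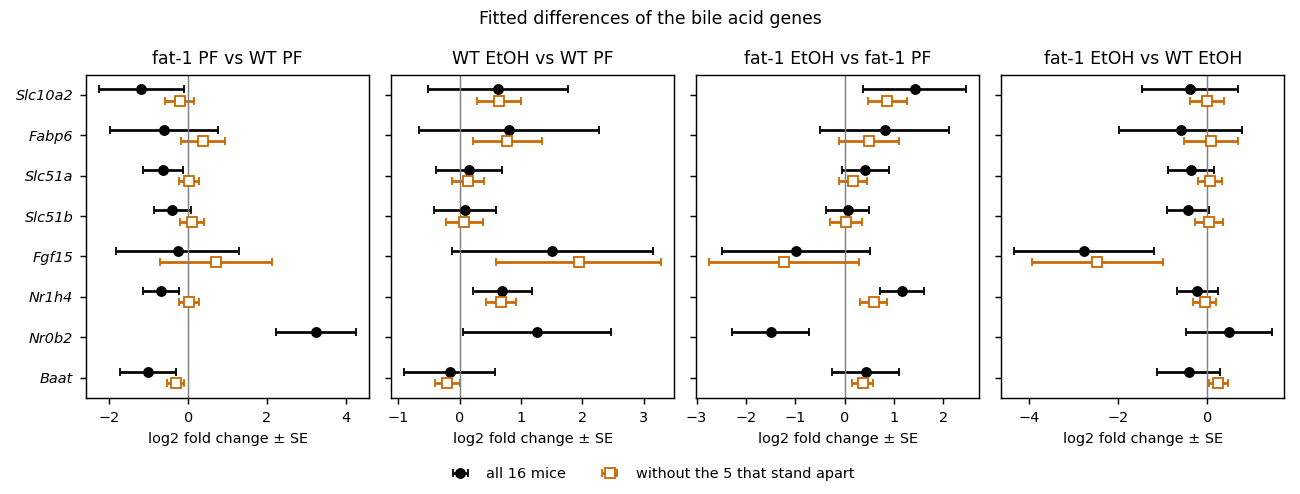
Log2 fold change with its standard error of each of the 8 genes in the 4 comparisons, from all 16 mice (filled) and without the 5 mice that stand apart (open, Nr0b2 not tested there). Without the 5 mice, the differences between genotypes lie between -0.06 and 0.09 for Slc51a, Slc51b and Nr1h4 and are 0.37 and 0.09 for Fabp6, -0.22 and -0.00483 for Slc10a2, -0.32 and 0.24 for Baat and 0.70 and -2.47 for Fgf15 (PF and EtOH mice), and with EtOH Nr1h4 stays positive in both genotypes (0.59 and 0.67).

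The genes were ordered by their level per length of exon. In WT PF mice the mean levels were 4636 RPKM (CPM per kb of exon) for Fabp6, 413.8 for Slc51b, 339.8 for Slc51a, 189.1 for Slc10a2, 67.5 for Nr1h4, 7.41 for Fgf15, 4.89 for Baat and 0.170 for Nr0b2. In the 11 mice that do not stand apart, each gene lay above the next in every mouse, except that Fgf15 lay above Baat in 6 of 11, so that these neighbours did not differ beyond their spread. Over all 16 mice, Slc51a lay above Slc10a2 and Nr1h4 above Fgf15 in 16, Slc51b above Slc51a in 15, Fabp6 above Slc51b, Slc10a2 above Nr1h4 and Baat above Nr0b2 in 14 each, and Fgf15 above Baat in 7.

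The genes whose log2 CPM ran most like those of each gene over the 16 mice were named by Pearson r, as a description of libraries that share diet, genotype and region. For Slc10a2 they were Pyy, a hormone of distal enteroendocrine cells (r = 0.989), Epb41l4a (0.980) and Prss23 (0.972). Pyy was at 1.82 and 1.35 CPM in fat-1 PF mice 2 and 4 and at 19.3 to 39.5 CPM in the other 14. Nr1h4 ran most like Bex1 (0.974), Crybg1 (0.972) and Lpcat4 (0.971), and Fabp6 like Suox, sulfite oxidase (0.967), Mep1a, a brush border protease (0.966), and Slc51a (0.962). Slc51a followed Tmem117 (0.969) and Erc2 (0.964) beside Fabp6. Tmem117 also led for Baat (0.962), before Naaladl1 (0.959), a brush border peptidase, and Asap2 (0.955). For Slc51b they were Abcg2, an efflux pump (0.932), Slc52a3, a riboflavin transporter (0.928), and Dpep1, a dipeptidase (0.928). Fgf15 had Camk2d (0.900), Slc13a1, a sulfate transporter (0.891), and Wdr1 (0.874). For Nr0b2, which had at most 33 reads in a mouse, r was highest with Pdha1 (0.830), Sema3b and Srr (0.828). Among the 8 genes, r was 0.957 for Slc10a2 with Nr1h4 and 0.947 with Fabp6, and Nr0b2 ran against each of the other 7 (-0.616 to -0.296). Nr0b2 was at 3 counts or fewer in 7 of the 16 mice. Its highest values, 33 and 22 reads, were in fat-1 PF mouse 4 and fat-1 EtOH mouse 4, which stand apart. No r was computed without the mice that stand apart.

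Of 39 other genes of bile acid transport, sensing and synthesis, 31 were tested. In fat-1 EtOH against fat-1 PF mice 4 rose and 13 fell, where 18.7% of all genes rose and 18.8% fell. In WT EtOH against WT PF mice 0 rose and 1 fell, where 0.0796% of all genes were called. Between the genotypes edgeR called 0 of the 31, with 10 in PF and 1 in EtOH mice at an unadjusted p under 0.05, beside 12.7% and 4.86% of all genes, and 2 and 0 called by DESeq2. For the interaction it called 0, with 8 at an unadjusted p under 0.05, beside 8.26% of all genes, and 0 called by DESeq2. Over both genotypes 3 rose and 11 fell with EtOH, where 18.3% of all genes rose and 17.6% fell. The median log2 fold change of the 31 was -0.24 in fat-1 EtOH against fat-1 PF mice, against 0.05 for all genes. The 8 not tested, among them the liver enzymes Cyp7a1 and Cyp8b1 and the liver transporters Slc10a1 and Abcb11, had at most 12 reads in any mouse.

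Among receptors and transcription factors, 12 of 13 were tested, and in fat-1 EtOH against fat-1 PF mice 4 fell and 1 rose, beside 18.8% and 18.7% of all genes. Gata4 fell by 7.57 ± 0.61 (SE) on the log2 scale (adjusted p = 5.93e-05), and by 7.38 ± 0.80 in WT EtOH against WT PF mice (adjusted p = 0.0027), the 1 gene of the lists called there, a call lost without WT EtOH mouse 1 or 3 (adjusted p = 0.0625 and 0.0626). Gata6, its relative in the gut epithelium, fell by 1.25 ± 0.18 (adjusted p = 0.000343). Nr1h3, the oxysterol receptor LXRα, fell by 1.23 ± 0.27 (adjusted p = 0.00339), and Nr1i2, the xenobiotic receptor PXR, which also senses bile acids, fell by 0.93 ± 0.17 (adjusted p = 0.00108). Nr5a2 (LRH-1), a partner of SHP in the control of bile acid genes, rose by 0.78 ± 0.20 (adjusted p = 0.00903).

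In bile acid synthesis and modification, 10 of 13 genes were tested, of which 8 fell and 1 rose in fat-1 EtOH against fat-1 PF mice. In this comparison 18.8% of all genes fell and 18.7% rose. Cyp3a11, which hydroxylates bile acids and drugs, fell by 5.32 ± 1.03 (SE) on the log2 scale (adjusted p = 0.00179), from 104.5 to 909.5 CPM in fat-1 PF to 0.178 to 28.2 CPM in fat-1 EtOH mice. It has close paralogs, and how far its counts could include their reads was not checked. Slc27a2, an acyl-CoA synthetase, fell by 2.91 ± 0.45 (adjusted p = 0.000501). The peroxisomal side-chain genes Acox2, Scp2, Amacr and Hsd17b4 fell by 1.53, 1.44, 1.00 and 0.69 (adjusted p of 0.000254 to 0.0335). Sult2b1 fell by 1.34 ± 0.46 (adjusted p = 0.0349), and Cyp27a1, the sterol 27-hydroxylase, fell by 1.06 ± 0.26 (adjusted p = 0.00631). Cyp7b1, the oxysterol hydroxylase, rose by 1.07 ± 0.31 (adjusted p = 0.0144) from 0.702 to 1.09 CPM in fat-1 PF to 1.43 to 2.47 CPM in fat-1 EtOH mice. In WT EtOH against WT PF mice, where 0.0796% of all genes were called, none of these passed the test, with Scp2 at -0.78 ± 0.22 (adjusted p = 0.178). The interaction was called for none of them.

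Of 10 further bile acid transporters, 6 were tested. In fat-1 EtOH against fat-1 PF mice Abcc4 (MRP4), a basolateral efflux pump, rose by 0.60 ± 0.21 (SE, adjusted p = 0.035), and the uptake carrier Slco2b1 fell by 0.78 ± 0.17 (adjusted p = 0.00384). Abcb1a, the efflux pump P-glycoprotein, rose with EtOH over both genotypes by 0.62 ± 0.19 (adjusted p = 0.0203), a call lost without the 5 mice (0.63 ± 0.27, adjusted p = 0.107). The group of FGF15 release and reception held Malrd1, Klb and Fgfr4, all tested. Fgfr4, the FGF15 receptor, rose by 1.43 ± 0.32 (adjusted p = 0.00373) in fat-1 EtOH against fat-1 PF mice, from 2.09 to 6.56 CPM in fat-1 PF to 7.10 to 16.3 CPM in fat-1 EtOH mice. Without the 5 mice, 10 of these 17 genes were still called in fat-1 mice, where 11.9% of all genes were called, and 3 were called in WT mice (Gata4, Nr1h3 and Scp2), where 3.41% were. The 10 were Gata4, Gata6, Nr1h3, Cyp3a11, Slc27a2, Acox2, Scp2, Amacr, Hsd17b4 and Sult2b1. The 4 genes that had risen (Fgfr4, Nr5a2, Abcc4 and Cyp7b1) were not called in the fat-1 comparison of those 11 mice, nor were Nr1i2, Slco2b1 and Cyp27a1. Over both genotypes 14 genes were called in the 11 mice, where 27.6% of all genes were called, and 10 of them, Nr5a2 and Nr1i2 included, were also called in all mice. The other 4 were Acox2, Sult2b1, Malrd1 (0.54 ± 0.16, adjusted p = 0.0332) and Gpbar1, the bile acid receptor TGR5 (1.60 ± 0.49, adjusted p = 0.0307), which had too few counts to be tested in all 16 mice. Abcb1a, Cyp27a1, Fgfr4 and Slco2b1 were called over both genotypes in all mice but not in the 11.

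**Figure D5:**
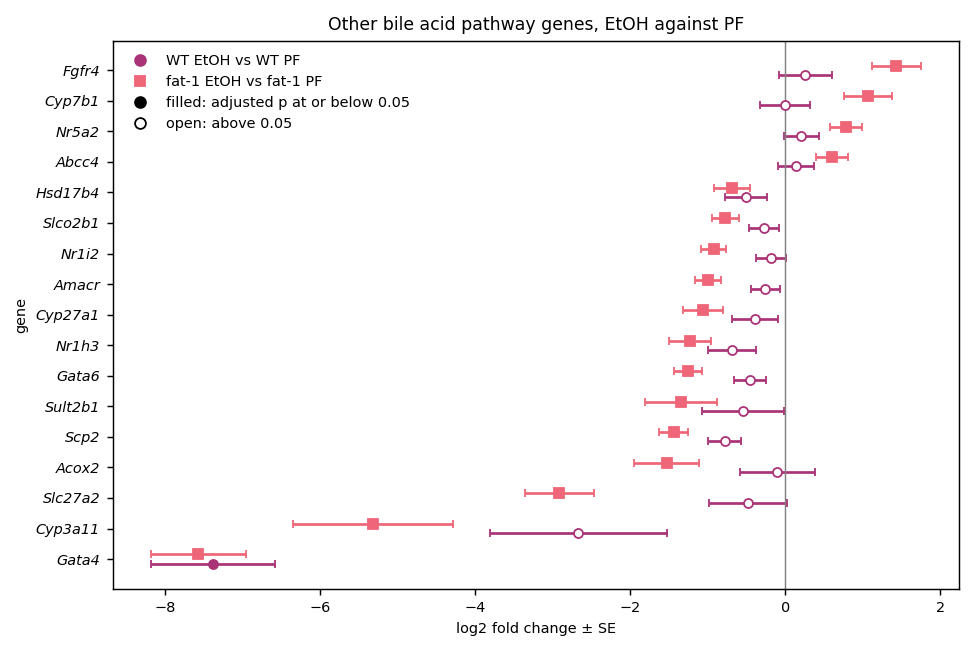
Log2 fold change with its standard error of the 17 other bile acid genes called in fat-1 EtOH against fat-1 PF mice (squares) and the same genes in WT EtOH against WT PF mice (circles), filled where the adjusted p was 0.05 or less. Gata4 is filled in both, and the other 16 only in the fat-1 comparison, a difference between genotypes that the interaction test did not call. Of all genes, 37.4% were called in the fat-1 and 0.0796% in the WT comparison.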

How the data were processed

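Poly(A)-selected, stranded libraries of the ileum of 16 mice were read in 2 × 75 bases. The authors aligned the reads with tophat2 2.0.13 to mm10, guided by Ensembl build 82, and deposited raw counts per gene made with htseq, whose settings are not given in the sources used here. The submitters' processing notes also name FastQC 0.10.1. Every column of the table belongs to 1 mouse, as do the labels, and the 8422645 to 11438539 counts per mouse put 3 counts at 0.246 to 0.421 CPM.

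Symbols, positions and exon lengths came from GENCODE M21 (GRCm38). Counts were analysed in R 4.3.3 with edgeR 4.0.16 (filterByExpr, TMM, robust quasi-likelihood fit, 1 mean per group, all 16 mice), with Benjamini-Hochberg adjustment over 13811 genes at 0.05. Tests of 4 pairs of groups, the interaction and the mean EtOH difference share mice, and the code was tested on simulated data. The 8 genes, the gene lists and the rule for names were chosen with earlier results of these data known. All 8 genes, any listed pathway gene called in at least 1 comparison, and the 3 genes most alike to each of the 8 by r of log2 CPM (prior count 2) were named, and markers were given as summed levels with examples. Alternatives were DESeq2 1.42.0, limma 3.58.1 voom, 2 other scalings, 2 other filters (1 count in any mouse or 10 in each), separate fits for each pair of groups, a block for the replicate number, and each mouse left out in turn. Leaving out the 5 mice that stand apart was added after seeing the data. The reads and cuffdiff2 results were not analysed here, and intervals of counts cover counting error only.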

Additional observations from a re-analysis of the deposited data

Results flagged for a closer look

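In the 24 sets of 4 or 5 mice tested for a single far value (8 genes in the groups WT PF, fat-1 PF and fat-1 EtOH), 2 mice lay far from the rest of their group by Dixon's criterion, and chance flags about 1 group in 20. The first was Fgf15 in fat-1 PF mouse 3, at 74.9 CPM against 0 to 0.742 CPM in the other 3, a gap of 0.990 of the whole range. This mouse does not stand apart in regional markers, and its Slc51a and Fabp6 were the highest of its group. The second was Nr0b2 in WT PF mouse 4, at 0.104 CPM, a gap of 0.936 of the range. This is 1 read against 2 reads in each other mouse of the group.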

How the results depend on the processing

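Over all alternatives, the log2 fold changes of the 8 genes in the 4 pairs of groups and of Nr1h4 over both genotypes gave 749 values with the same sign and side of 0.05, 26 with the other sign, 28 that lost a call and 2 that gained one. Slc10a2 over both genotypes, called by voom, is not in this tally. DESeq2 called 2 pathway genes in fat-1 PF against WT PF and 2 in WT EtOH against WT PF mice, with 2.56% and 2.11% of all genes called. Voom called 2 of the 8 genes in fat-1 EtOH against fat-1 PF mice and 2 over both genotypes, and 8 of 31 pathway genes in WT mice, where it called 26.4%, 42.2% and 20.3% of all genes. It gave Fgf15 3.97 in fat-1 EtOH against fat-1 PF and Nr0b2 -0.0609 in fat-1 EtOH against WT EtOH mice, both with the other sign. Voom values of Slc51a, Baat and Nr1h4 were -1.10, -1.93 and -1.24 in fat-1 PF against WT PF and 1.24, 1.57 and 1.96 in fat-1 EtOH against fat-1 PF mice. DESeq2 size factors, the loose filter and the fit of 2 groups each called 0 of the 8 genes in fat-1 EtOH against fat-1 PF mice, where they called 37.4%, 27.7% and 23.2% of all genes. In WT mice the strict filter, which removes Gata4, called 0 pathway genes and the fit of 2 groups called 5, with 8.32% of all genes called. The strict filter leaves out genes under 10 counts in a mouse, so that Fgf15, Nr0b2 and Baat have no value there. Without the 5 mice that stand apart, 0 of the 8 genes were called in fat-1 EtOH against fat-1 PF mice, and 3 pathway genes in WT and 10 in fat-1 mice. The sign turned for Fabp6 (0.37), Slc51a (0.0209), Slc51b (0.0889), Fgf15 (0.704) and Nr1h4 (0.018) in fat-1 PF against WT PF, and for Fabp6 (0.0856), Slc51a (0.0563), Slc51b (0.0366) and Baat (0.24) in fat-1 EtOH against WT EtOH mice. Leaving out 1 mouse gave 0 to 1 of the 8 genes in fat-1 EtOH against fat-1 PF mice and 0 to 1 over both genotypes, with 28.5% to 39.4% and 26.9% to 38.1% of all genes called, and 0 to 1 pathway genes in fat-1 PF against WT PF and in WT EtOH against WT PF mice, with at most 0.826% and 0.479% of all genes called. It gave -6.10 to 1.07 for Fgf15 in fat-1 PF against WT PF, -1.87 to 4.85 for Fgf15 and -0.18 to 0.54 for Slc51b in fat-1 EtOH against fat-1 PF, -0.0277 to 0.26 for Slc51b in WT EtOH against WT PF and -0.45 to 1.00 for Nr0b2 in fat-1 EtOH against WT EtOH mice. The cause of these changes was not tested. Nr0b2 in 7 and Fgf15 in 4 of the 16 mice were at 3 counts or fewer and could not be told from 0.

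The labels do not say whether mice with the same replicate number were paired. Deviations from the group mean correlated at -0.02 on average (-0.25 to 0.19, 21 pairs with the same number). For 74 pairs with different numbers the average was 0.01 (-0.32 to 0.26). These ranges overlap, and with so few mice in a group they cannot exclude a pairing. With the replicate number as a block, edgeR called 0 of the 8 genes in fat-1 EtOH against fat-1 PF mice (Nr1h4 1.37, adjusted p = 0.0649) and 0 over both genotypes (Nr1h4 1.00, adjusted p = 0.0606), where it called 34.4% and 35.02% of all genes. In the same block fit, Slc51a (-0.0418) and Slc51b (-0.021) in WT EtOH against WT PF mice and Fgf15 (1.22) in fat-1 EtOH against fat-1 PF mice had the other sign, and no other sign of the 8 genes in the 4 pairs of groups turned.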
